A study of Rattus norvegicus with 12 samples.

Results

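The 8 libraries of the injured rats, 4 from the hypoxic-ischemic brain damage (HIBD) model group and 4 from the acupuncture group, were pooled and compared with the 4 libraries of the normal group, which together are all 12 libraries of the series. Group membership came from the sample titles alone and no measured value was used to choose them. All libraries were bulk RNA from the prefrontal cortex of rats of the SD strain at postnatal day 28. The labels of the acupuncture group name the treatment and not the injury, so that its place among the injured rats rests on the title of the series. How and when the injury was made, whether the normal rats had a sham operation, the schedule of the acupuncture and the sex of the animals are not stated in the labels. Libraries are named below by the numbers in their titles. The labels do not say that each number is 1 animal, so a p-value here measures spread between libraries, which may be technical.

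Hypoxic-ischemic brain damage follows a loss of oxygen and blood flow around birth. Energy failure, overactivation of glutamate receptors, inflammation and later loss of neurons and myelin are its known stages, and the prefrontal cortex serves attention, working memory and the control of behaviour. In bulk tissue, fewer cells of a type and less RNA per cell cannot be told apart. Values were available for 2 classes of features. Genes with an Ensembl identifier are those of the reference annotation. The other class, called assembled loci here, are loci that a transcript assembler defined from the reads and that carry no Ensembl identifier. Such loci can hold long non-coding RNA, unannotated parts of known genes or intronic and intergenic signal. The files do not pair identifiers with gene names, so the tissue could not be checked against cell type markers, and no gene below is given a function.

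After transcripts were summed, 27885 genes and loci passed the filter on low values, of which 20023 were Ensembl genes and 7862 assembled loci. Total estimated counts ran from 714904584 to 1090316733 per library. They are too large to be counts of reads, and the number of reads behind them is unknown. The filter is set in counts, so what it removes depends on this scale. With values divided by 70, 16890 features passed it, of which 14960 were Ensembl genes. The libraries did not fall into the pooled groups on their main axis of variation. On the first principal component of the 14068 Ensembl genes averaging 0 or more in log2 CPM, which held 31.6% of the variance, all 4 normal libraries lay on the positive side, from 14.7 to 55.5. HIBD model libraries 2 and 18 lay there too, at 33.6 and 25.6, while the other 6 injured libraries lay between -46.2 and -19.6. On component 2, with 14.6% of the variance, HIBD model libraries 2 and 18 lay apart from normal. They stood at 26.6 and 40.5, and the normal libraries ran from -37.0 to 12.2. Acupuncture library 5 also lay above the normal libraries, at 22.3. The remaining injured libraries lay within the normal range, from -20.1 to 8.36. CPM is the estimated count per 1000000 of the library total after TMM scaling. Normal library 10 also stood apart from the other normal libraries on measures given below. Counts of calls, and library measures that passed their test, are given with and without normal library 10 and HIBD model libraries 2 and 18.

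**Figure D1:**
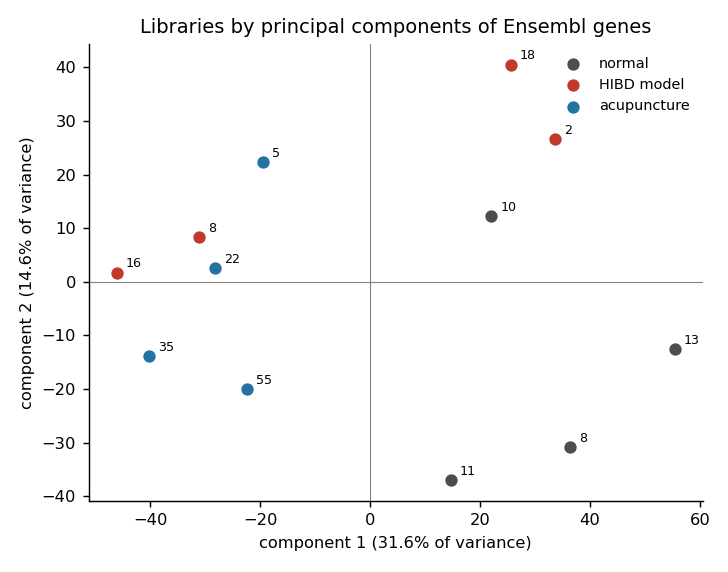
Each point is a library, placed by the first 2 principal components of log2(CPM + 0.1) over 14068 Ensembl genes, with its number beside it and its group as colour. HIBD model libraries 2 and 18 lie on the positive side of component 1 with the 4 normal libraries, and the other 6 injured libraries lie on the negative side. On component 2, HIBD model libraries 2 and 18 and acupuncture library 5 lie above all normal libraries. The remaining injured libraries lie within the normal range.

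The pooled comparison asks which genes differed from normal in injured rats whether or not they had acupuncture. Assembled loci were higher in the injured libraries far more often than lower, with 453 higher and 10 lower among the 7862 tested. Among the 20023 Ensembl genes, 229 were higher and 433 lower, and the lower ones changed by less. In all, 1125 of 27885 features passed an adjusted p of 0.05 (edgeR quasi-likelihood test), which is 4.03% of those tested, with 682 higher (2.45%) and 443 lower (1.59%). By class, 463 assembled loci (5.89%) passed, 5.76% higher and 0.127% lower, and 662 Ensembl genes (3.31%), 1.14% higher and 2.16% lower. Without adjustment, 7509 features had p under 0.05, which is 26.9% of those tested.

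The sizes of change differed between the classes and directions. The 433 lower Ensembl genes had a median log2 fold change of -0.45, with an interquartile range of -0.61 to -0.34, and 45 of them changed by at least 1 on the log2 scale. Of the 229 higher Ensembl genes, 8 were listed at 0 in all normal libraries. The other 221 had a median log2 fold change of 0.90, with an interquartile range of 0.52 to 1.81, and 103 of them rose by at least 1. Of the 453 higher assembled loci, 61 stood at 0 in every normal library and could enter the test only through the injured libraries. The others had a median of 2.36, and 381 of them rose by 1 or more. Called features were chosen by this comparison, so their medians are a description. Over everything tested that was above 0 in a normal library, the median was -0.07 for Ensembl genes, 1.07 for assembled loci and 0.01 for both together.

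The lower Ensembl genes were mostly well expressed. Of the 433, 402 averaged 0 or more in log2 CPM, and the median level of the 433 was 3.94. Among all 14068 Ensembl genes at that level, 2.86% were called lower and 1.29% higher. The share of Ensembl genes called lower rose from 0.216% below a mean log2 CPM of -4 to 3.14%, 3.47% and 3.63% in the bins from 2 to 4, 4 to 6 and 6 to 8. It was 1.26% above 8. The share called higher stayed between 0.427% and 1.41% over all 8 bins. Assembled loci were called higher in 1.69% of cases below -4 and in 15.7% and 16.8% between 2 and 4 and between 4 and 6, where 369 and 107 loci were tested. Between 6 and 8, 1 of 23 loci was called higher, and above 8, 1 of 4. Of the 453 higher loci, 196 averaged 0 or more in log2 CPM.

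**Figure D2:**
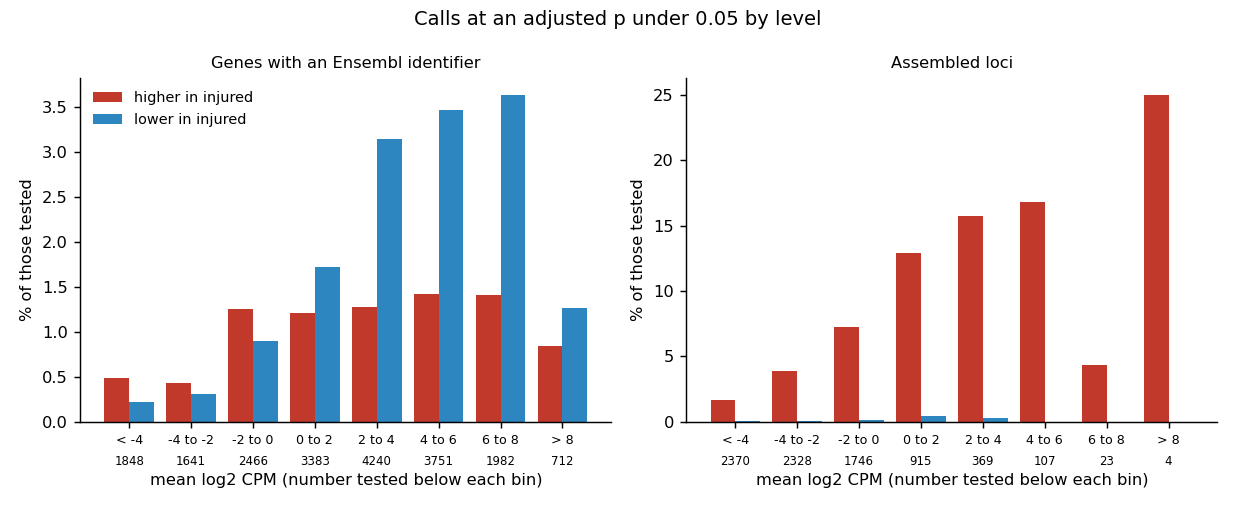
Bars give the percentage of features tested that passed an adjusted p of 0.05 in the pooled comparison, higher (red) or lower (blue) in injured libraries, by mean log2 CPM, with the number tested under each bin and separate y axes for the 2 classes. Lower calls on Ensembl genes reach 3.63% at 6 to 8. Higher calls on assembled loci are 16.8% at 4 to 6 and 4.35% of 23 loci at 6 to 8. The last bin of assembled loci, at 25%, holds only 4 loci.

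The number of calls stood on a steep step in the adjusted p-values. It was 67 at an adjusted p of 0.04, 1125 at 0.05 and 4469 at 0.1. Every single library left out moved it by more than 1.5 times. It fell to 38, 39 and 31 without normal libraries 8, 11 and 13, to 42, 37 and 85 without HIBD model libraries 8, 16 and 18, and to 36, 43 and 33 without acupuncture libraries 5, 22 and 35. It rose to 4033 without normal library 10, to 2425 without HIBD model library 2 and to 1750 without acupuncture library 55. Of the 1125 calls, 1088 were also among the 4033. The share of features at an unadjusted p under 0.05 moved much less, from 19.2% to 29.3% over these 12 fits. Leaving out HIBD model libraries 2 and 18 together gave 4062 calls, and leaving out normal library 10 with them gave 5754.

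The balance between higher and lower Ensembl genes differed between fits. It was 229 higher and 433 lower in the pooled fit, 404 and 808 with limma-voom, 1268 and 1594 with DESeq2, and 531 and 2084 or 630 and 2165 with limma-trend on FPKM (pseudocounts 1 and 0.1). It was near even with RLE scaling (39 and 43), with a filter on features reaching 1 CPM in 4 or more libraries (360 and 343) and with the length trend removed (23 and 21). With Ensembl genes scaled and tested alone it turned to 114 higher and 64 lower. Without normal library 10 it was 753 and 1019, without HIBD model libraries 2 and 18 936 and 1754, and without all 3 libraries 1212 and 1983. These fits differ in scaling, filter, model or libraries, and which of these moves the balance was not tested. The median log2 fold change of the 14068 better expressed Ensembl genes was -0.08 in the pooled fit and -0.01 when Ensembl genes were scaled alone. Among assembled loci, more were higher than lower in each of these fits that tested them, with 35 and 1 under RLE scaling, 402 and 5 under the CPM filter and 1655 and 87 in the FPKM fit with pseudocount 1.

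A smaller group of features was called whichever library was left out. It held 18 features. Of these, 12 were assembled loci, all higher, and 11 of the 12 were at 0 in every normal library. A locus at 0 in every normal library could pass the filter on low values only through the injured groups, so its direction was fixed by the filter and these 11 are no sign of stability. The other 6 were Ensembl genes, 1 higher and 5 lower, all 5 at 0 or more in mean log2 CPM and with log2 fold changes from -1.38 to -0.47. In 9 other fits (3 group means, RLE, no filter, limma-voom, 1 surrogate variable, length trend removed, 2 limma-trend fits on FPKM and DESeq2), 14 of the 1125 were called every time. Of these, 11 were among the 18, and 6 of the 11 were loci at 0 in every normal library. The surrogate variable was negative in every normal library and in HIBD model libraries 2 and 18. It was positive in every other injured library, so it was partly confounded with the comparison.

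Both injured groups showed the change at like sizes. For the 433 lower Ensembl genes, the median log2 fold change was -0.45 in HIBD model and -0.44 in acupuncture libraries, each against normal. For the 221 higher Ensembl genes with a fold change it was 0.88 and 0.87, and for the assembled loci above 0 in a normal library 2.44 and 2.26. Both columns of values use the same normal libraries, and the pooled fit favours features that moved in both groups, so these values are given side by side as a description. Taken alone against normal, the HIBD model group gave 27 calls (0.0968% of those tested) and the acupuncture group 23 (0.0825%).

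The difference between acupuncture and HIBD model libraries does not use the normal libraries. No feature passed an adjusted p of 0.05 for it in edgeR, and 1481 of 27885 (5.31%) had an unadjusted p under 0.05. Among the 1125 pooled calls, 24 (2.13%) did so. The pooled fit counts a difference between the injured groups as noise, so it favours features in which they are alike. A fit of 3 group means does not, and there 16 of its 74 calls (21.6%) had an unadjusted p under 0.05 between the injured groups. Neither share shows how often the injured groups differed. Among the 433 lower Ensembl genes, the absolute log2 difference between acupuncture and HIBD model libraries had a median of 0.08. For the higher Ensembl genes and assembled loci, the medians were 0.12 and 0.20.

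Relative to the mean of the normal libraries, the median over the 402 lower Ensembl genes averaging 0 or more was 0.04, -0.09, -0.003 and 0.07 (log2) for normal libraries 8, 10, 11 and 13. It was -0.30, -0.49, -0.48 and -0.41 in HIBD model libraries 2, 8, 16 and 18, and -0.46, -0.43, -0.44 and -0.33 in acupuncture libraries 5, 22, 35 and 55. HIBD model library 2 and acupuncture library 55 lay nearest to normal, and normal library 10 nearest to the injured libraries. Over the 182 higher genes above the same level, the median was -0.09, 0.21, -0.04 and -0.10 in the normal libraries in that order. It was 0.42, 0.81, 0.85 and 0.72 in the HIBD model libraries and 0.79, 0.80, 0.74 and 0.50 in the acupuncture libraries. The same 3 libraries lay nearest to the other group. Since these genes were chosen by this comparison, the separation of the groups is no support for it.

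Non-overlap of the libraries gave a similar count in both directions. All 8 injured libraries lay above all 4 normal ones in 666 features (2.39% of those tested) and below all of them in 645 (2.31%). Among the called features, they did so in 137 of 229 higher and 303 of 433 lower Ensembl genes, and in 201 of 453 higher assembled loci. These features were chosen by this comparison, so the counts among them are no support for it. Of the higher ones, 8 Ensembl genes and 61 loci were at 0 in every normal library and could not lie below normal. Without normal library 10, the counts over all features were 3255 higher and 1845 lower, 11.7% and 6.62% of those tested. Leaving out a library can only raise such counts.

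The features named singly are the 2 higher and the 2 lower ones that had the smallest p among those averaging 0 or more in log2 CPM. They were chosen by this comparison, so their lack of overlap and their calls in other fits of the same libraries are no further support. Gene ENSRNOG00000005927 had 16.6, 15.3, 14.4 and 18.2 CPM in normal libraries 8, 10, 11 and 13. It had 26.05, 25.97, 27.8 and 26.5 CPM in HIBD model libraries 2, 8, 16 and 18, and 28.4, 27.2, 26.9 and 24.3 CPM in acupuncture libraries 5, 22, 35 and 55. Every injured library lay above every normal one, normal library 10 included. The level rose from 16.1 ± 1.67 CPM (SD, n = 4) to 26.6 ± 1.25 CPM (SD, n = 8), a log2 difference of 0.72 with SE 0.07 (adjusted p = 0.00269 in edgeR). The difference between acupuncture and HIBD model libraries was 0.00 (SE 0.08). It passed in every alternative fit run for it, with edgeR adjusted p from 0.00251 to 0.0133 when single libraries were left out.

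The assembled locus XLOC_049670 had 1.02, 2.37, 1.32 and 1.21 CPM in normal libraries 8, 10, 11 and 13. It had 3.77, 4.94, 5.54 and 5.94 CPM in HIBD model libraries 2, 8, 16 and 18, and 5.40, 7.95, 6.74 and 5.39 CPM in acupuncture libraries 5, 22, 35 and 55. Normal library 10 was the highest normal and HIBD model library 2 the lowest injured library, and the groups did not overlap. The level rose from 1.48 ± 0.607 CPM (SD, n = 4) to 5.71 ± 1.24 CPM (SD, n = 8), a log2 difference of 1.94 with SE 0.26 (adjusted p = 0.0146 in edgeR). The call was lost without normal library 13 (edgeR adjusted p = 0.0539) and with 1 surrogate variable (edgeR adjusted p = 0.0516), with the direction kept. That variable was partly confounded with the comparison.

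Gene ENSRNOG00000054291 had 29.5, 26.7, 25.2 and 26.9 CPM in normal libraries 8, 10, 11 and 13. It had 18.7, 17.9, 16.5 and 16.8 CPM in HIBD model libraries 2, 8, 16 and 18, and 19.8, 16.7, 16.5 and 18.7 CPM in acupuncture libraries 5, 22, 35 and 55. All injured libraries lay below all normal ones. The level fell from 27.1 ± 1.78 CPM (SD, n = 4) to 17.7 ± 1.26 CPM (SD, n = 8), a log2 difference of -0.61 with SE 0.07 (adjusted p = 0.00552 in edgeR). It passed in every alternative fit run for it, with Ensembl genes scaled alone too (log2 fold change -0.55, edgeR adjusted p = 0.0277).

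Gene ENSRNOG00000047931, which has a single transcript in the table, had 72.5, 68.1, 69.98 and 76.6 CPM in normal libraries 8, 10, 11 and 13. It had 56.4, 52.1, 53.4 and 52.4 CPM in HIBD model libraries 2, 8, 16 and 18, and 47.3, 54.6, 49.7 and 49.6 CPM in acupuncture libraries 5, 22, 35 and 55. The groups did not overlap. The level fell from 71.8 ± 3.67 CPM (SD, n = 4) to 51.9 ± 2.96 CPM (SD, n = 8), a log2 difference of -0.47 with SE 0.05 (adjusted p = 0.00821 in edgeR). With the trend on transcript length removed, its log2 fold change was -0.29 (edgeR adjusted p = 0.0514).

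**Figure D3:**
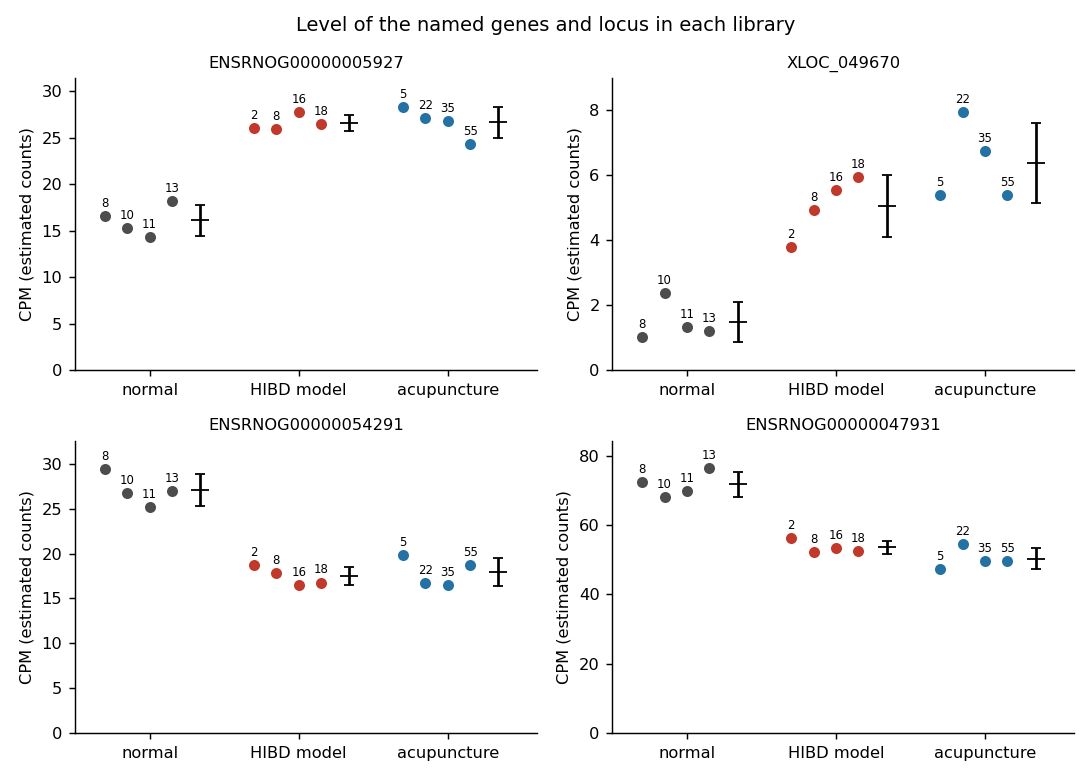
Each point is the CPM of 1 library, labelled with its number, by group (normal, HIBD model, acupuncture). Horizontal ticks with bars are means ± SD (n = 4 each), and in all 4 panels the 8 injured libraries do not overlap the 4 normal ones. The features were chosen by this comparison.

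For the 2 named Ensembl genes with several transcripts, the level lay mostly in newly assembled ones. The annotated transcript of ENSRNOG00000005927 was listed at 0 in 10 of 12 libraries. Its newly assembled transcript TCONS_00326158 averaged 3.18 ± 1.27 CPM in normal (SD, n = 4) and 10.5 ± 3.17 CPM in injured libraries (SD, n = 8). Every injured library lay above every normal one for it, from 6.17 CPM up against 4.88 CPM down. That transcript made up 19.7% of the gene in normal and 39.3% in injured libraries. The largest transcript of the gene, TCONS_00326155, averaged 7.44 ± 3.07 CPM in normal and 10.9 ± 3.03 CPM in injured libraries, and the groups overlapped. TCONS_00326157 and TCONS_00326159 also averaged higher in injured libraries. The annotated transcript, TCONS_00326153 and TCONS_00326156 averaged lower there. The annotated transcript of ENSRNOG00000054291 reached at most 0.00104 CPM in normal and 0.00140 CPM in injured libraries. Of its 2 newly assembled transcripts, TCONS_00081346 ran from 16.0 to 24.8 CPM in normal and from 0 to 14.3 CPM in injured libraries, where 4 libraries were listed at 0. TCONS_00081345 averaged 6.70 ± 2.77 CPM in normal and 11.4 ± 7.39 CPM in injured libraries. These are estimates for transcripts that share sequence, so a shift between them is less certain than the sum. In XLOC_049670, TCONS_00068770 held 79.1% of the locus in normal and 74.3% in injured libraries, where it ran from 0.115 to 6.74 CPM and overlapped normal.

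Of the 229 higher Ensembl genes, 149 had both annotated and newly assembled transcripts, and in 115 of these more than 50% of the difference in CPM lay in the new ones. In these 149 genes the new transcripts held a median of 98.3% of the level over all libraries, against 46.6% in the 5934 Ensembl genes with both kinds that averaged 0 or more in log2 CPM. The called genes were not cut by level, so these sets are unlike. How often the difference lay in new transcripts over all Ensembl genes was not computed. Both kinds of transcript were higher in 119 of the 149, only the new ones in 26 and only the annotated ones in 4. Among the 157 lower genes with both kinds, the new ones held a median of 64.2% of the level, and both kinds were lower in 86. Among the 14068 Ensembl genes averaging 0 or more in log2 CPM, those with 4 or more transcripts were called higher in 2.59% and lower in 2.38% of 2977 cases. Those with 1 transcript were called higher in 0.661% and lower in 3.16% of 5599.

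Assembled loci as a class were higher in the injured libraries, by an amount that depended on which loci were taken and on the measure. The median over the 1418 loci averaging 0 or more in log2 CPM, relative to the 12 libraries, was -1.36, 0.01, -1.11 and -1.26 (log2) for normal libraries 8, 10, 11 and 13. It was -0.09, 0.73, 1.13 and 0.10 in HIBD model libraries 2, 8, 16 and 18, and 0.87, 0.65, 0.55 and -0.12 in acupuncture libraries 5, 22, 35 and 55. Normal library 10 lay above HIBD model library 2 and acupuncture library 55. The mean was 1.41 higher in injured than in normal libraries (two-sided exact permutation p = 0.00606, adjusted over 8 measures 0.0202). The class was tested because it was seen to differ in earlier results of these data. The p-values for assembled loci here and below are therefore not independent support. The smallest p this design allows is 0.00202. These loci were kept by their mean over all libraries, 8 of which are injured, which favours loci that are high there. Over all 7862 loci tested the difference was 0.39 (exact permutation p = 0.00808). The 0.1 added to each CPM shrinks changes in loci of low level, so 0.39 and 1.41 are not on a like footing. In edgeR, the median log2 fold change of loci above 0 in a normal library was 1.07 over all loci. It was 1.39 over those averaging 0 or more in log2 CPM. The part of the added 0.1 was not tested. Over the 1000 loci with log2(mean CPM + 0.1) of at least 0 in the normal libraries alone, a choice made after seeing the data, it was 0.64 (exact permutation p = 0.0101). Without normal library 10 the difference was 1.71 (exact permutation p = 0.00606, the smallest that 165 assignments allow), and without HIBD model libraries 2 and 18 it was 1.56. The acupuncture and HIBD model means were 0.49 ± 0.43 and 0.46 ± 0.56 (SD, n = 4).

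Between 7493 and 7934 assembled loci were listed above 0 in injured libraries, against 6591, 7605, 6770 and 6931 in normal libraries 8, 10, 11 and 13. The mean difference was 762.75 loci (exact permutation p = 0.00808, adjusted 0.0202), 973 without normal library 10 and 769.75 without HIBD model libraries 2 and 18. The loci were defined by assembly from reads, and 8 of the 12 libraries are injured. Its part in these counts was not tested. For Ensembl genes above 0 the difference was 237, from 21441 ± 279 to 21677 ± 224 genes (SD, n = 4 and 8), which did not pass (exact permutation p = 0.133, adjusted 0.213). Assembled loci took 1.84 ± 0.432% of estimated counts in injured and 1.01 ± 0.337% in normal libraries (exact permutation p = 0.0101, adjusted 0.0202). That difference of 0.833 percentage points was 1.0 without normal library 10 and 0.911 without HIBD model libraries 2 and 18. Of loci averaging 0 or more in log2 CPM, 642 had 1 transcript and 776 had 2 or more. Leaving out loci at 0 in every normal library, the median log2 fold change was 1.70 for the former and 0.99 for the latter. Of all 642, 84.1% were positive, and of all 776, 81.8%. These 2 shares include loci at 0 in every normal library, whose direction was fixed by the filter. Whether the library kit kept the strand is not stated, so a locus that overlaps a gene on the other strand cannot be told apart from it.

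**Figure D4:**
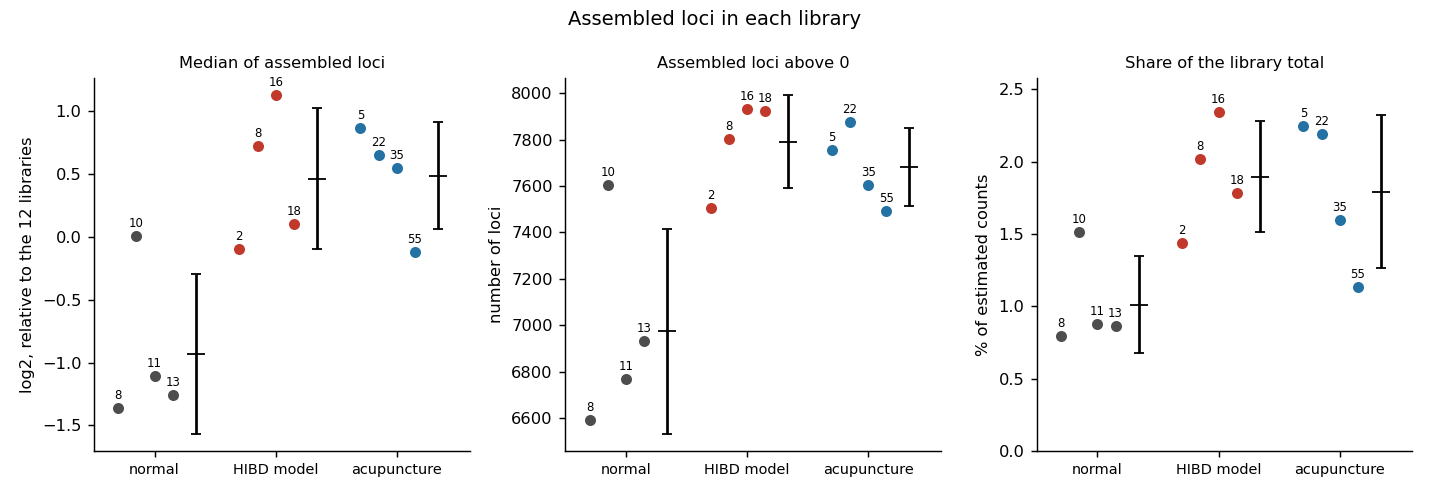
Points are libraries labelled by number, and ticks with bars are group means ± SD (n = 4 each), for the median of 1418 assembled loci, the number of loci above 0 and the share of estimated counts in assembled loci. Normal libraries 8, 11 and 13 lie below all injured libraries in all 3 panels, and normal library 10 lies among the injured ones.

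The 453 loci called higher had a summed level of 438, 1079, 499.5 and 451 CPM in normal libraries 8, 10, 11 and 13. The sum was 1154, 2684, 3530 and 1568 CPM in HIBD model libraries 2, 8, 16 and 18, and 2732, 2266, 2152 and 1196 CPM in acupuncture libraries 5, 22, 35 and 55. Normal library 10 was again the highest normal library and close to HIBD model library 2 and acupuncture library 55. In each normal library 62 of the 453 loci were at 0, against 1 to 12 in injured libraries.

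The median change from normal to injured differed with the length of transcripts. The 14068 Ensembl genes averaging 0 or more in log2 CPM were split into 10 equal groups by the factor that links FPKM to the estimated count of a transcript, which is proportional to length if FPKM is defined in the usual way. In the shortest group the median log2 fold change was -0.15, in the fifth -0.08 and in the longest 0.01. Each injured group against normal gave -0.16 (HIBD model) and -0.15 (acupuncture) in the shortest and 0.01 for both in the longest. In the shortest group 5 genes were called higher and 44 lower, and in the longest 27 and 28. The share called either way ranged only from 3.41% to 5.05% over the 10 groups, against 4.15% for all 14068 genes.

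Per library, the median of the shortest group minus that of the longest was 0.11, 0.01, 0.12 and 0.15 (log2) for normal libraries 8, 10, 11 and 13. It was 0.04, -0.09, -0.14 and -0.03 in HIBD model libraries 2, 8, 16 and 18, and -0.10, -0.07, -0.09 and -0.01 in acupuncture libraries 5, 22, 35 and 55. Normal library 10 and HIBD model library 2 overlapped. The mean changed by -0.16 from normal to injured (exact permutation p = 0.00404, adjusted over 8 measures 0.0202), by -0.19 without normal library 10, by -0.18 without HIBD model libraries 2 and 18 and by -0.21 without all 3. This measure was chosen with earlier results of these data known, so its p-value is not independent support. The libraries nearest to the other group were those that also lay nearest for the assembled loci. RNA integrity values were not used here, and the part of length or RNA quality in the calls was not tested beyond the fit with the length trend removed. That fit gave 47 higher and 21 lower calls, all 68 of them among the 1125, and 23 higher and 21 lower Ensembl genes.

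**Figure D5:**
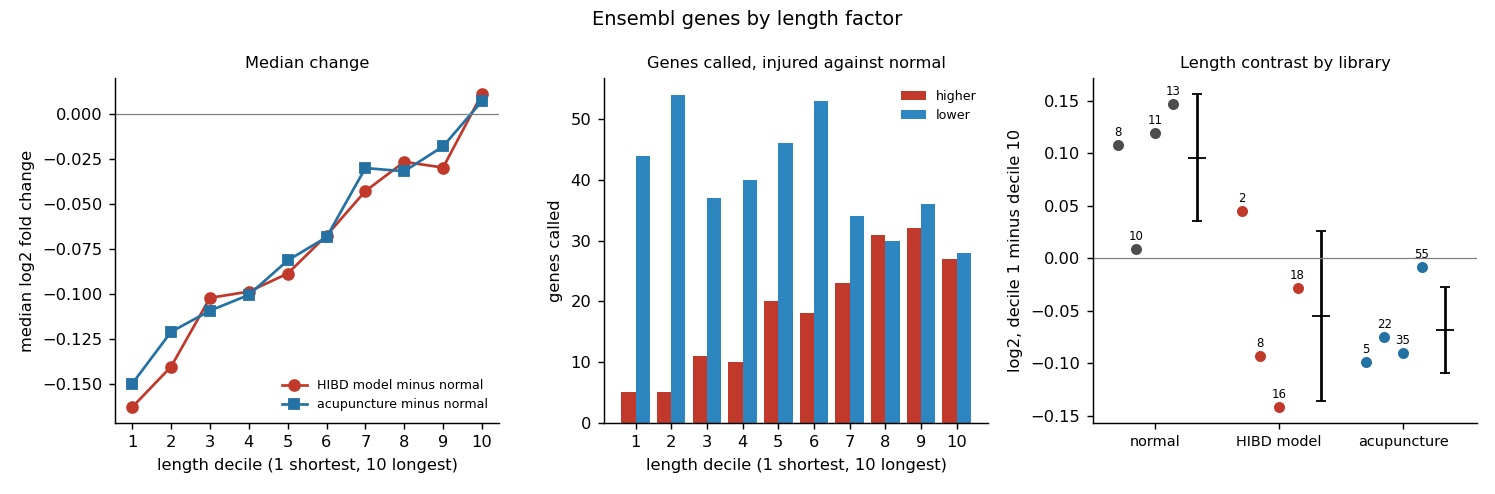
Ensembl genes by length factor, with the median log2 fold change of each injured group against normal (left), the number of genes called in the pooled comparison (middle) and the median of the shortest minus that of the longest group per library with mean ± SD (right, n = 4 each). The median rises from about -0.15 in the shortest to 0.01 in the longest group, and 3 of 4 normal libraries lie above all injured ones.

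The remaining library measures did not pass the test. Newly assembled isoforms took 16.5 ± 1.69% of the estimated counts of Ensembl genes in normal and 16.7 ± 1.69% in injured libraries (exact permutation p = 0.859, adjusted 0.972). The 10 most abundant genes took 12.6 ± 1.36% of the total in normal and 12.6 ± 1.71% in injured libraries (exact permutation p = 0.972). The total estimated count gave an exact permutation p of 0.180 (adjusted 0.240).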

How the data were processed

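Per the labels' protocols, RNA was extracted with Trizol and libraries were made with an NEBNext kit. HTSeq 0.6.0 and the build Rnor_6.0 are named, without a role, in the submitters' processing notes. Aligner and assembler: not given in the sources used here. As deposited files, the authors gave a table of values for 78025 transcripts, read here as estimated counts, and FPKM values per library labelled by gene. The unit of both was read from the values. Each estimated count equals the FPKM times a factor of the row and one of the library (median deviation 0.00114% over 12003 rows above 2000, against 17.9% with rows shuffled), which also checks the pairing of transcript and gene rows.

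Transcripts were summed into 43206 genes and loci (32883 Ensembl, 10323 assembled). The whole numbers were tested with edgeR 4.0.16 in R 4.3.3 (TMM, filterByExpr by the 3 groups, quasi-likelihood test, injured against normal, Benjamini-Hochberg adjustment, threshold 0.05). SEs come from the F statistic. Values per library were compared by two-sided exact permutation tests and adjusted over 8 measures, on log2(CPM + 0.1) where logged. The design assumed read counts; the scale of the deposited values per read is unknown. Alternatives changed the scaling, filter, model, pseudocount and libraries, and used limma 3.58.1, DESeq2 1.42.0 and sva 3.50.0. Members, measures and lists were chosen with earlier results of these data known. The 47 fixed gene lists and the naming rule for symbols needed gene names: 0 identifiers matched the reference table, so they were not analysed here, and 2 identifiers in each direction were named, those with the smallest p.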

Additional observations from a re-analysis of the deposited data

Results flagged for a closer look

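In 48 sets of libraries examined (8 library measures and 4 named features in the normal, HIBD model, acupuncture and pooled injured groups), 2 held a library far from the others, and chance flags about 1 in 20. Normal library 10 had 1.51% of its estimated counts in assembled loci, above the other 3 normal libraries by 0.890 of the group's range. HIBD model library 18 had a total estimated count of 1090316733, above the other 3 HIBD model libraries by 0.955 of the range.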

How the results depend on the processing

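The main count was 1125 features. It was 74 with 3 group means, 118 with RLE, 54 without a filter and 178 with Ensembl genes alone. It was 26 with 1 surrogate variable, which was partly confounded with the comparison, and 68 with the length trend removed. It was 603 when a change of 1 or more on the log2 scale was also asked for. It was 2392 with limma-voom, 5401 with DESeq2, 4357 and 5006 with limma-trend on FPKM (pseudocounts 1 and 0.1), and 1110 and 1570 with the CPM filter and with values divided by 70. The CPM filter and the division by 70 left 16046 and 16890 features to test, and 748 and 804 of the 1125 calls were shared. The count lay between 31 and 4033 with single libraries left out. It was 4062 without HIBD model libraries 2 and 18 and 5754 without these and normal library 10, both chosen after seeing the data. The causes of these differences were not tested. The share at an unadjusted p under 0.05 stayed between 19.2% and 36.4% over these fits. The difference in assembled loci kept its direction and stayed under 0.05 in all alternatives run, at 0.39 over all loci, 0.64 over loci chosen by their level in normal libraries (added after seeing the data), 1.31 over those averaging 2 or more in log2 CPM, and from 1.28 to 1.71 with single libraries left out. It was 1.56 without HIBD model libraries 2 and 18 and 1.88 without these and normal library 10. These alternatives reuse the same libraries, in which the class had already been seen to differ. They are not independent support. No paired analysis was possible because normal and injured libraries share only 1 number, 8. Depth in reads is unknown, so no counting limit is given and a 0 is only listed as such.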
